A study of Mus musculus with 12 samples.

Results

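The m6A peak lists named 294 genes with a symbol of Zfp followed by a digit, among 10030 genes with an mRNA peak in at least 1 of 6 lists. The genes were taken by symbol alone, without use of any measured value, and they carried 2196 of the 83673 mRNA peaks. N6-methyladenosine (m6A) is a methyl mark on adenosines of mRNA. It was mapped here by MeRIP-seq, in which RNA fragments captured with an m6A antibody are sequenced beside the uncaptured input, and a peak is a stretch where captured reads exceed input reads. The cells were C17.2 NSCs, an immortalised mouse neural stem cell line of wild-type genotype. The control group had 3 libraries from cells kept in standard oxygen. The H/R (hypoxia/reoxygenation) group had 3 libraries from cells held for 12 h at 5% O2 and then returned to standard oxygen for 48 h, as a model of ischemia and reperfusion in culture. The 12 samples comprised 3 immunoprecipitated and 3 input samples a group, and the 6 mRNA lists carried the letters A, B and C. Values of 3 libraries are given below in the order A, B, C. The labels do not tell whether replicates were separate cultures, so each p-value measures only the spread between these libraries, which may be technical.

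Most Zfp genes encode C2H2 zinc finger proteins, in which a row of short finger repeats, each holding a zinc ion, reads DNA sequence. Many also carry a KRAB domain, which recruits the corepressor TRIM28 and the histone methyltransferase SETDB1 to silence transposable elements, and these genes spread by duplication into clusters along the chromosomes. The finger array often lies in a single long last exon, and m6A is known for its concentration in long exons and around stop codons. Some members of the symbol family are of another kind. Zfp36 and Zfp36l1 encode CCCH proteins that bind AU-rich elements and speed mRNA decay.

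The Zfp lists are best read beside the size of each list. The control A, B and C lists held 12180, 8932 and 7863 mRNA peaks, and the H/R A, B and C lists held 18706, 13954 and 22038. The shortest H/R list exceeded the longest control list. Every listed peak had a p score (10 times the negative log10 of the peak caller's p-value) of at least 50. The caller's own false discovery rate was high. For Zfp peaks its median was 89.1% in control A, 100% in control B and C, and 58.9%, 76.3% and 67.6% in the H/R lists, and the lowest rate of any Zfp peak was 24.98%, in H/R A. The lists rest on the p score, and how many of their peaks are false was not tested. A list shows only where a peak was called, so a gene without a peak may be unmethylated, too little expressed or too shallowly read, and these were not separated here. In bulk samples of this kind, fewer cells with a transcript and less of it per cell cannot be told apart. Of 10 neural stem cell markers, 3 had a peak in each control list and 4 or 5 in the H/R lists. Nes, Sox2 and Notch1 had one in all 6 lists, whereas Vim, Msi2, Fabp7, Pax6 and Slc1a3 had none. Of the 4 microglia markers at most 1 had a peak in any list, and none of the 3 endothelial markers had one. Neuronal markers had between 0 and 2 of 5 with a peak, astrocyte markers 0 or 1 of 4 and oligodendrocyte lineage markers 0 or 1 of 5.

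By the RefSeq annotation of mm10, 397 protein-coding genes bear a current Zfp symbol. Of these, 316 had a peak in some list and 81 had none. The lists gave 22 of the 316 under another symbol, so those 22 are not among the 294 members and are counted with the other genes. Current Zfp genes were represented in the lists at 79.6%, against 43.4% of the 21490 other annotated protein-coding genes.

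Fingers were counted in the coding sequence of the transcript each peak names. Of 287 Zfp genes with a usable coding model, 276 held at least 1 C2H2 finger and 11 held none by this pattern. The 276 genes held 3039 fingers, with a median of 10 a gene and a highest count of 33, in Zfp142, Zfp462 and Zfp619. The last exon held 87.2% of the fingers, and in 220 genes (79.7%) it held all of them. The median last exon measured 2789 bases in Zfp genes and 1449 bases in other genes, while the median number of exons was 5 and 9. Adjacent fingers are joined by a conserved linker. Its coding letters were searched as AC, any base, GG, any base, GA, any base, AA, any base, CC on the transcript strand only, 14 bases in all. The pair of stretches below shows the repeat inside peaks, with the linkers in capitals, for 2 genes, each the one with the most peaks in its own cluster, on chromosomes 7 and 17. Both are RefSeq mm10 coding sequence on the transcript strand. The Zfp74 stretch lies at chr7:29934321-29934418 on the minus strand, and the Zfp51 stretch at chr17:21464337-21464434 on the plus strand.
Zfp74: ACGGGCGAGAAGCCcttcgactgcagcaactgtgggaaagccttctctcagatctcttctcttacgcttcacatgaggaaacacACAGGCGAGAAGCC
Zfp51: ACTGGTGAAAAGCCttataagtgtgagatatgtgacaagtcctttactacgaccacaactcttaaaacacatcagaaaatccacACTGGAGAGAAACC
The linker recurred after 84 bases in each gene, with 13 of 14 bases identical between its copies in Zfp74 and 11 of 14 in Zfp51. Of all linkers inside mRNA peaks, Zfp peaks held between 62.9% and 75.2% per library. Reads that mapped to more than 1 place had been removed before peak calling, so values of close paralogs are uncertain.

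The share of Zfp genes with a peak was higher on average in the H/R group, but the groups overlapped. Zfp genes with a peak numbered 250, 196 and 154 in the control libraries and 261, 236 and 262 in the H/R libraries. As shares of the 294 members these were 85.0%, 66.7% and 52.4% for the control libraries against 88.8%, 80.3% and 89.1% for the H/R libraries. The control A library stood above H/R B. The means were 68.0% ± 16.4 (SD, n = 3) and 86.1% ± 5.01 (SD, n = 3), a difference of 18.0 percentage points that was similar in size to the spread within the control group. Other genes had means of 54.0% ± 8.84 and 78.5% ± 11.8 (SD, n = 3 each) of their own number. Every list was then held to its 7863 highest-scoring peaks, the length of the shortest list. Of the 294 members, the control shares were 70.1%, 60.2% and 52.4% and the H/R shares 58.2%, 61.9% and 50.3%. The mean difference then lay on the control side, at -4.08 percentage points.

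Zfp peaks made up 3.02%, 2.98% and 2.63% of all peaks in the control libraries and 2.52%, 2.69% and 2.30% in the H/R libraries. The group means were 2.88% ± 0.213 and 2.51% ± 0.198 (SD, n = 3 each), and the ranges overlapped between control C and H/R B. Zfp peaks were not a larger part of the longer H/R lists.

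**Figure D1:**
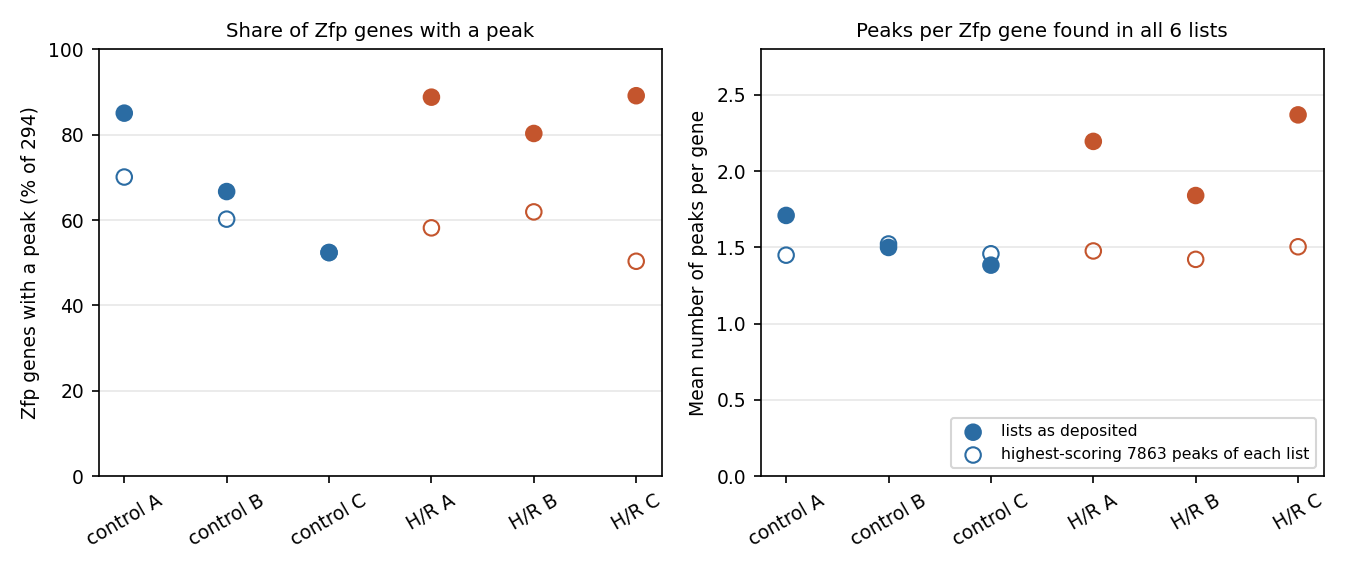
Share of the 294 Zfp genes with a peak (left, percent) and mean number of peaks per Zfp gene found in all lists (right), 1 point per library, for control (blue) and H/R (red). Filled points use the lists as deposited and open points the 7863 highest-scoring peaks of each list; the H/R libraries stand above the control libraries in the right panel only for the filled points.

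Many Zfp genes were called in every library. The number of Zfp genes found in exactly 1, 2, 3, 4, 5 and 6 lists was 26, 18, 30, 31, 51 and 138. The 138 genes in all 6 lists were 46.9% of the members, beside 39.5% of all 10030 genes. Only 8.84% of Zfp genes were found in a single list, beside 20.1% of other genes. The 56 genes of the related Zbtb, Zscan and Zkscan families, many of which also encode C2H2 proteins, had 41 in all 6 lists.

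Few Zfp genes were called in all lists of 1 group and none of the other. Called in all 3 H/R lists and no control list were 5 Zfp genes (1.70%), beside 4.96% of all genes. Called in all 3 control lists and no H/R list was no Zfp gene, beside 0.0698% of all genes. An exact permutation test of 3 against 3 libraries cannot give a two-sided p below 0.1. Each of the 5 genes had this value on its number of peaks, which their selection by presence fixed in advance.

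The 5 genes were Zfp511, Zfp607, Zfp637, Zfp78 and Zfp811. Zfp511 had 2, 1 and 3 peaks in the H/R libraries. Zfp637 had 1, 2 and 2, and Zfp607 had 1, 1 and 2. Zfp78 and Zfp811 had a single peak in each H/R library, so only presence separated the groups for them. The strength of their peaks varied between libraries. The highest p score of Zfp511 was 130.9, 50.6 and 513.5 in the H/R libraries. That of Zfp607 was 421.7, 72.5 and 552.8, and that of Zfp78 was 425.4, 55.9 and 267.9. Zfp637 had 109, 310.7 and 888.9, and Zfp811 had 221.6, 209.1 and 82.0. Beside these, the median p score of all Zfp peaks was 534.9, 516.3 and 412.5, so in H/R A and B all 5 genes were below it and in H/R C 3 were above it. The highest fold enrichment (captured over input, as the peak caller gave it) of Zfp811 was 7.87, 9.71 and 7.61 in the H/R libraries. That of Zfp637 was 6.76, 10.6 and 27.3, a wide spread between libraries. With lists of equal length no Zfp gene was called in the H/R lists alone, beside 1.13% of all genes, and 5 of 236 (2.12%) were called in the control lists alone, beside 1.32%. With a p score of at least 100 the H/R lists alone held 4, Zfp626, Zfp637, Zfp68 and Zfp775, of which only Zfp637 is among the 5 above. Leaving out control A gave 24 such genes, leaving out H/R B gave 15, and leaving out any other library gave 6.

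Long peaks were seen in 3 of these genes, each with many fingers. In Zfp811, with 13 fingers, the longest peak measured 2207, 2045 and 1985 bases in the H/R libraries. In Zfp607, with 18 fingers, it measured 1774, 1911 and 1655 bases. In Zfp78, with 11 fingers, it measured 1465, 1495 and 1567 bases. The peaks of Zfp511 were short in comparison, at 339, 363 and 343 bases, as was its last exon of 363 bases. The coding stretches below come from the part that all 3 H/R peaks shared and hold the GGAC nearest to its middle, in capitals. They are RefSeq mm10 sequence on the transcript strand, from chr17:32797916-32797975 (minus strand) for Zfp811, chr7:27878705-27878764 (plus) for Zfp607 and chr7:6378968-6379027 (plus) for Zfp78.
Zfp811: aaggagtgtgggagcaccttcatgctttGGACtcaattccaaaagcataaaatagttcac
Zfp607: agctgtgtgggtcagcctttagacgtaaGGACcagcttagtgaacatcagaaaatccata
Zfp78: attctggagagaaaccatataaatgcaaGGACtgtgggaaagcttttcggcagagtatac
A GGAC in a peak is a description of the sequence and does not locate a methylated base, since a peak of this length holds several.

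Zfp genes, like Zbtb, Zscan and Zkscan genes, carried fewer peaks each than other genes. In the 138 Zfp genes of all 6 lists, the mean number of peaks was 1.71, 1.5 and 1.38 in the control libraries and 2.20, 1.84 and 2.37 in the H/R libraries. Every H/R value was above every control value. The group means were 1.53 ± 0.165 and 2.14 ± 0.270 (SD, n = 3 each). Other genes found in all 6 lists had 2.33, 1.92 and 1.79 in the control libraries and 3.13, 2.63 and 3.45 in the H/R libraries. The 41 Zbtb, Zscan and Zkscan genes in all 6 lists had 1.73, 1.59 and 1.34, then 2.17, 1.98 and 2.44. With lists of equal length the Zfp values were 1.45, 1.52 and 1.46 against 1.48, 1.42 and 1.5, a difference of -0.00917, and the groups overlapped. The groups also overlapped at fold enrichments of 10 or more, where the means were 1.64 (control) and 1.82 (H/R). In 122 Zfp genes (41.5%) no library ever held more than 1 peak, and 41 of the 138 had the same number of peaks in all 6 libraries. These counts were not made for other genes.

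On the lists as deposited, the higher number in the H/R libraries lay mostly outside the last exon, in Zfp genes as in other genes. This split was not computed for lists of equal length, in which the higher number was absent. Among the Zfp genes in all 6 lists, peaks in the last exon averaged 0.838 ± 0.0482 a gene under control conditions, against 0.911 ± 0.0798 after H/R (SD, n = 3 each). Peaks in other exons averaged 0.592 ± 0.101 and 1.05 ± 0.155 (SD, n = 3 each). For the other exons the 3 H/R values, 1.13, 0.870 and 1.14, all exceeded the 3 control values, 0.703, 0.565 and 0.507. In other genes the control and H/R means were 0.579 and 0.674 in the last exon and 1.28 and 2.15 in other exons. A last-exon peak was present in all 6 libraries for 105 of the 138 genes (76.1%), beside 47.3% of the 3828 other genes. For peaks in other exons the shares were 31.2% and 57.9%.

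More peaks in every H/R library than in every control library were counted in 22 Zfp genes (7.48%), beside 14.8% of all genes. Of the Zbtb, Zscan and Zkscan genes 7.14% met this rule. Of the 22 Zfp genes, 17 also had a peak in some control library. Fewer peaks in every H/R library were counted in no Zfp gene, beside 0.12% of all genes. Each of the 22 had p = 0.1, the smallest value of the exact permutation test, which their selection by non-overlap fixed in advance. The largest mean differences belonged to Zfp362, Zfp710 and Zfp39, of which the first and last were chosen after their values were seen. Zfp362 had 2, 1 and 2 peaks in the control libraries and 6, 4 and 7 in the H/R libraries. Zfp710 had 1 peak in each control library and 3, 2 and 6 in the H/R libraries. Zfp39 also had 1 in each control library, and 3, 4 and 3 in the H/R libraries. No such gene was left with lists of equal length, where 2.51% of all genes still met the rule, and 5 were left at fold enrichments of 10 or more. Leaving out control A gave 55 and leaving out H/R B gave 60.

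**Figure D2:**
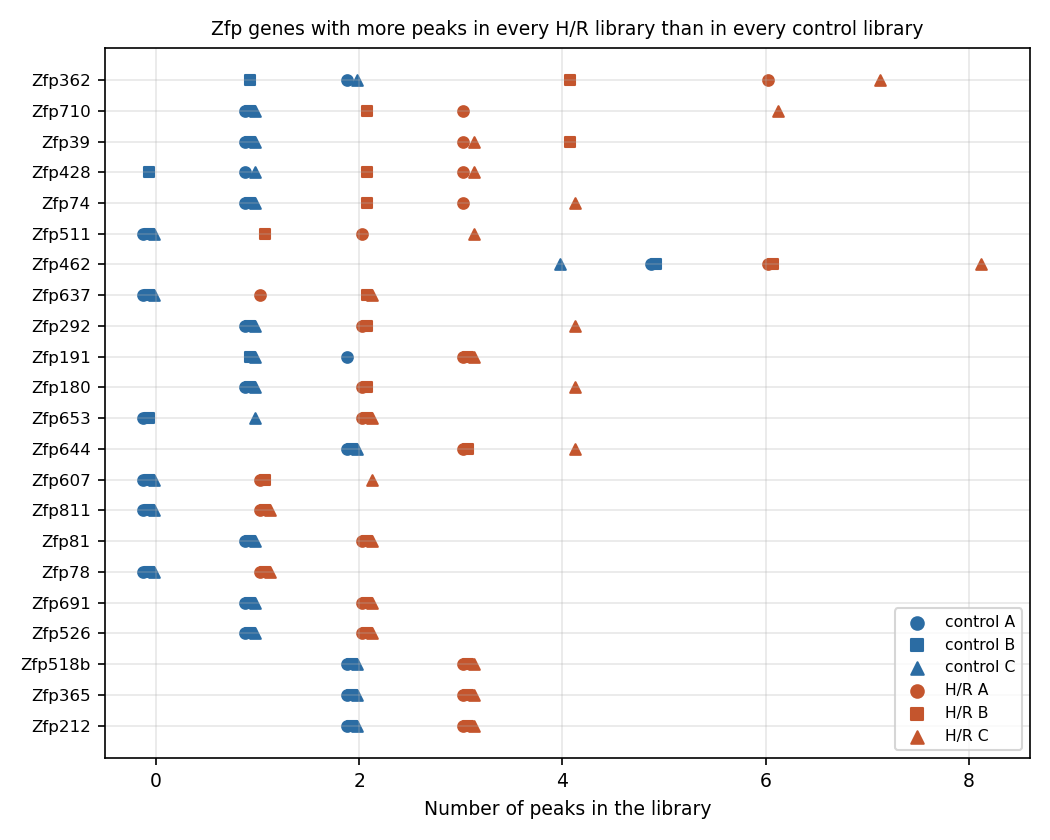
Number of peaks in each library for the 22 Zfp genes with more peaks in every H/R library (red) than in every control library (blue); symbols mark libraries A, B and C and are shifted slightly sideways so that equal values show. Zfp362 has the largest difference between group means, and 5 genes have 0 peaks in all 3 control libraries.

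The 8 Zfp genes with the most peaks had between 25 and 38 peaks summed over the 6 libraries. Zfp827, which recruits a chromatin remodelling complex to telomeres, had 7, 4 and 3 peaks in the control libraries and 9, 8 and 7 in the H/R libraries (exact permutation test, two-sided, p = 0.2). Its groups touched at 7 peaks. Zfp462, a chromatin factor needed in neurodevelopment, had 5, 5 and 4 peaks in the control libraries and 6, 6 and 8 in the H/R libraries, with no overlap (exact permutation test, two-sided, p = 0.1). Zfp106, an RNA-binding protein, had 6, 4 and 4 against 6, 6 and 6. Zfp142, with its 33 fingers, had 4, 4 and 2 against 7, 4 and 7. Zfp609, which works with the cohesin loader NIPBL in neural progenitors, had 5, 4 and 2 against 5, 5 and 6. Zfp326, of a complex that couples transcript elongation to splicing, had 4 peaks in every library except H/R A, with 5. Zfp318 and Zfp516 had sums of 30 and 29 peaks, with overlapping groups.

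Zfp peaks were long. Their median length was 1754, 1831 and 1778 bases in the control libraries and 1072, 1570 and 759 bases in the H/R libraries. Peaks of other genes had medians of 484, 557 and 510 bases in the control libraries and 291, 344 and 242 in the H/R libraries. The lowest Zfp median, in H/R C, was above the highest median of other genes, in control B. The Zfp means were 1787 ± 39.3 and 1134 ± 409 bases (SD, n = 3 each), and all 3 H/R values were below all 3 control values. With lists of equal length the Zfp medians were 2064, 1882 and 1778 bases against 1926, 2084 and 1735, a mean difference of 7 bases with overlapping groups. The groups also overlapped at a p score of at least 100, where the means were 1893 (control) and 1443 bases (H/R). Between 58.2% and 62.8% of Zfp peaks in the control libraries spanned at least 1500 bases, and between 34.7% and 53.2% in the H/R libraries. Zbtb, Zscan and Zkscan genes also had long peaks, with medians from 886 to 1470 bases.

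**Figure D3:**
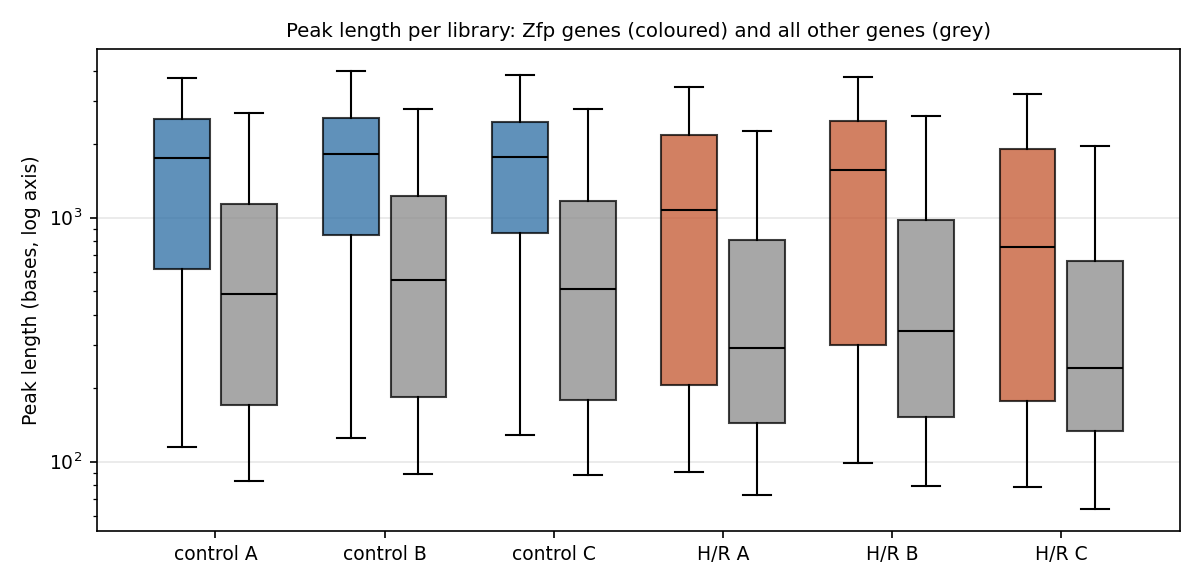
Peak length in bases (log axis) per library for Zfp genes (blue control, red H/R) and all other genes (grey). Boxes show the quartiles with the median as a line and whiskers the 5th and 95th percentiles; the Zfp medians run from 759 to 1831 bases and those of other genes from 242 to 557.

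Most Zfp peaks on a matched transcript lay in the last exon, and by median these were longer than those in other exons. Of Zfp peaks on a matched transcript, 66.0%, 66.7% and 63.1% were in the last exon in the control libraries and 53.4%, 57.8% and 52.0% in the H/R libraries. In other genes the shares were 36.8%, 35.3% and 34.3%, then 28.4%, 29.1% and 26.5%. By bases, the last exon held 82.8% ± 3.13 of Zfp peak sequence under control conditions, against 82.4% ± 1.29 after H/R (SD, n = 3 each), a difference of -0.458 points within the spread of replicates. By peak centres the same comparison gave 65.2% and 54.2%, with no overlap of the groups. Zfp peaks in the last exon had a median length of 2219, 2248 and 2194 bases in the control libraries and 2066, 2308 and 1766 in the H/R libraries, which overlapped. Zfp peaks in other exons had medians of 276, 418 and 477 bases against 183, 234 and 166, which did not. The shares of peaks, the peak centres and these lengths by exon were not computed for lists of equal length. The authors had screened peaks by their position on exons. Between 90.2% and 97.7% of the Zfp peaks began or ended on an exon boundary, and between 56.1% and 67.4% covered at least 90% of their exon. Other genes had between 94.3% and 98.1% and between 73.4% and 85.0% on these measures.

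Among genes grouped by the length of the last exon the Zfp peaks were still the longer ones. In last exons of 3001 to 4000 bases, 70 Zfp genes had last-exon peaks with medians of 2826, 2629 and 2636 bases in the control libraries and 2525, 2817 and 2108 in the H/R libraries. The 897 other genes of that class had 1891, 1970 and 2084 bases, then 1688, 2157 and 1334. In the same class, Zfp peaks covered a median of 79.6%, 76.3% and 75.1% of the exon in the control libraries, beside 54.6%, 59.1% and 61.6% in other genes. In each of the 5 classes of last exon length the Zfp median was above that of other genes in all 6 libraries. Up to 2000 bases the median peak of both sets covered 100% of the exon in every control library. Longer Zfp peaks there cannot be told apart from longer exons within a class. In the classes above 2000 bases the median share of the exon covered was higher for Zfp peaks in all 6 libraries. The class up to 1000 bases had only between 5 and 11 Zfp last-exon peaks a library.

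**Figure D4:**
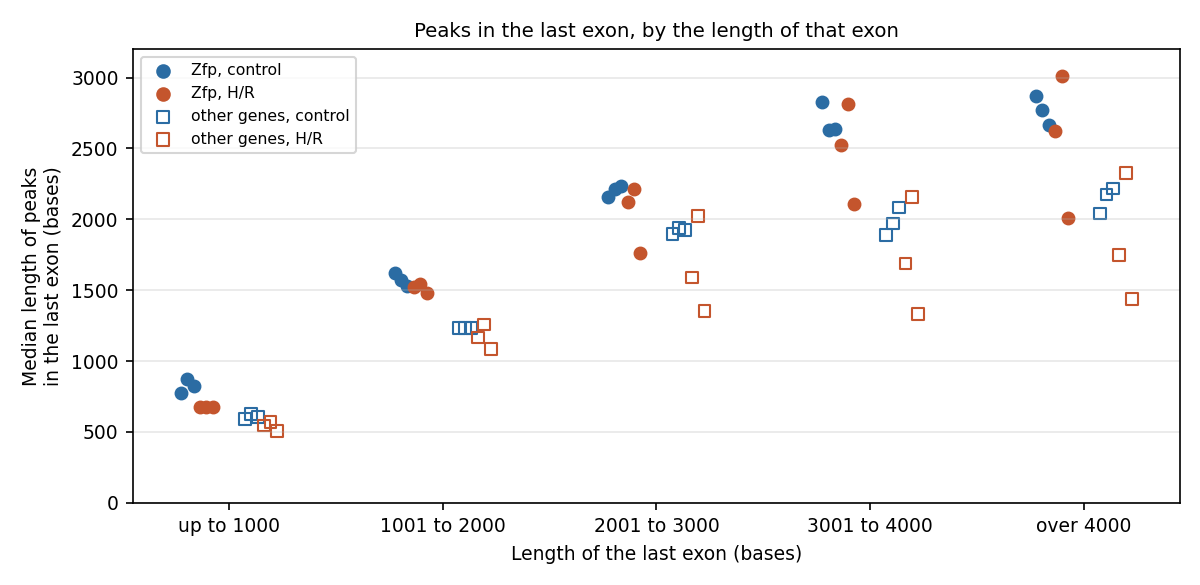
Median length in bases of peaks in the last exon, for genes grouped by the length of that exon; filled circles are Zfp genes, open squares other genes, blue control and red H/R, 1 symbol per library, shifted sideways. In exons of 3001 to 4000 bases the Zfp medians lie between 2108 and 2826 and those of other genes between 1334 and 2157.

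The finger array was inside the peak in most called genes. In control A, 90.4% of the 2666 fingers of 235 called genes lay inside a peak. The shares were 86.1% and 81.5% in control B and C, and 86.4%, 88.9% and 78.4% in the H/R libraries. All fingers of a gene lay inside peaks in 81.7%, 74.1% and 66.4% of the called genes in the control libraries and in 72.8%, 78.0% and 62.3% in the H/R libraries. The groups overlapped on both measures. Genes with 8 or more fingers had long peaks, with medians from 1155 to 2163 bases, and those with 1 to 7 fingers had medians from 424.5 to 1183 bases. The last exons of these sets had medians of 3059 and 1887 bases. Found in all 6 lists were 42.6% of the 204 genes with 8 or more fingers and 56.9% of the 72 genes with 1 to 7.

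Zfp peaks held the GGAC core less densely than other peaks. Per 1000 bases of peak they held 2.86, 3.21 and 3.53 in the control libraries and 3.13, 3.00 and 3.24 in the H/R libraries. Other genes held between 4.48 and 4.70. The difference remained among peaks of 1500 to 3000 bases, where Zfp peaks held between 2.52 and 3.18 and other peaks between 4.19 and 4.38. In that range GGAC was present in at least 97.7% of Zfp peaks and 99.6% of other peaks in every library. The linker was present in 76.5%, 70.0% and 63.2% of Zfp peaks of that length in the control libraries and 75.3%, 74.8% and 72.7% in the H/R libraries, beside between 1.83% and 2.79% of other peaks. No GGAC ran into a linker in any peak of either set. A finger ends on a histidine codon (CAC or CAT), so GG cannot stand before a linker that directly follows it. The wider m6A consensus of 5 letters (A, G or T, then A or G, then AC, then A, C or T) did not separate the sets. Zfp peaks held between 20.3 and 21.3 per 1000 bases and other peaks between 20.2 and 20.8. The control and H/R ranges overlapped for GGAC and for the linker.

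The longest peak of a gene was often the same in every library. In 40 of the 138 genes (29.0%) the longest peak had exactly the same length in all 6 libraries. The same share was not computed for other genes, so the pattern is not shown to be particular to Zfp genes. Both ends lay on exon boundaries in between 45.4% and 56.7% of Zfp peaks on a matched transcript. In other genes this held for between 65.0% and 78.4%. Zfp292, with a last exon of 8934 bases, had the longest peaks of the family, at 7849, 7852 and 8082 bases in the control libraries and 7848, 7824 and 7473 in the H/R libraries (exact permutation test, two-sided, p = 0.1). The groups did not overlap, by as little as 1 base. Zfp462 had a longest peak of 5594 bases and Zfp646 one of 5349 bases in all 6 libraries, both longer than the last exons of these genes, of 2898 and 554 bases. Zfp629 had 5532 bases in every library except control C, where it had 2134. Zfp704 ranged from 4569 bases in H/R C to 7423 in H/R B.

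The longest peak was longer in every control library than in every H/R library for 9 of the 138 genes (6.52%), beside 3.53% of all genes in all 6 lists. It was longer in every H/R library for 4 genes (2.90%), beside 4.01%. Of the 9, Zfp446 had 2058, 2115 and 2015 bases in the control libraries and 1129, 1236 and 883 in the H/R libraries, the clearest gap, and was chosen after its values were seen. Zfp74 had 3253 bases, its whole last exon, in each control library and 3165, 3212 and 1688 in the H/R libraries. The 4 were Zfp451, Zfp7, Zfp827 and Zfp866, and Zfp866 was among them with a control B peak of only 122 bases. The count of 9 became 5 with lists of equal length or with a p score of at least 100, and 4 at fold enrichments of 10 or more. It became 19 without control C and 29 without H/R B.

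Fold enrichment was lower in the H/R lists for Zfp genes, as for other genes. The median fold of Zfp peaks was 22.2, 31.6 and 27.1 in the control libraries and 10.3, 15 and 11.3 in the H/R libraries, with no overlap. The means were 27.0 ± 4.74 and 12.2 ± 2.48 (SD, n = 3 each). Other genes had medians of 21.8, 34.0 and 28 and then 9.32, 15.5 and 10.0. With lists of equal length the Zfp medians were 26, 33.5 and 27.1 against 15.2, 20.4 and 17.9, still without overlap. The lowest fold in any list differed too, from 4.99 to 8.07 in the control lists and from 2.24 to 3.32 in the H/R lists, so the lists did not share a floor. The part of that floor in the difference was not tested. The highest fold was higher in every control library for 81 of the 138 genes (58.7%), beside 53.6% of all genes in all 6 lists, and without control C it was 134 of 179. It was higher in every H/R library for no Zfp gene, beside 0.277% of all genes.

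The 5 Zfp genes with the highest lowest fold kept strong peaks in all libraries. Zfp651 had a highest fold of 200.5, 269.9 and 127.8 in the control libraries and 83.4, 118.6 and 112.4 in the H/R libraries (exact permutation test, two-sided, p = 0.1). Its groups did not overlap. Zfp710 had 69.4, 104.9 and 71.1 against 66.3, 51.8 and 68.9. Zfp622, a factor of large ribosomal subunit maturation, had 49.8, 135.0 and 80.1 against 42.1, 52.2 and 72.6, which overlapped. Zfp365, a centrosomal protein that binds DISC1, had 85.1, 85.0 and 63.5 against 40.8, 44.5 and 52.5. Zfp316 had 44.7, 66.1 and 55.8 against 39.3, 36.8 and 43.5. Of this set Zfp365 had no C2H2 finger by the pattern used, and Zfp316 had 14. A stretch of Zfp316 from the middle of the part shared by all 6 peaks, at chr5:143253649-143253708 on the minus strand of mm10, is shown with its GGAC in capitals.
Zfp316: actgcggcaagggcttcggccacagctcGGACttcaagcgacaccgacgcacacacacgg

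Several Zfp genes with known roles were called in every library. Zfp57, which keeps DNA methylation at imprinted loci, had a longest peak of 1311 bases in all 6 libraries and a highest fold of 32.1, 31.5 and 27.2 against 18.7, 22.8 and 11.2. Zfp809, which silences murine leukemia proviruses, had a longest peak of 1152 bases, its whole last exon, in all 6 libraries. Zfp568, which represses a placental Igf2 promoter, had 1 peak in each library except H/R A, with 2. Zfp217, a transcriptional corepressor that binds METTL3 and holds back m6A, had 3, 2 and 2 peaks against 4, 3 and 5 (exact permutation test, two-sided, p = 0.2), and the groups shared 3 peaks. Zfp281, a pluripotency factor, had 1 peak in each library, from 3457 to 3643 bases. Zfp91 had 3 peaks in each library except H/R B, with 2. Zfp143, an activator at many promoters, had 2, 2 and 1 against 3, 1 and 3, and Zfp148 had 2, 2 and 1 against 2, 2 and 4. Zfp503 and Zfp703, related regulators of development, had between 1 and 2 peaks and exactly 1 peak in each library. The CCCH genes Zfp36 and Zfp36l1 had 1 or 2 peaks and 1 peak in each library, and the longest Zfp36l1 peak was its whole last exon of 2789 bases in 4 of 6 libraries. Zfp335, which is needed in neural progenitors, had 2 peaks in H/R C alone, and the spindle factor Zfp207 had 1 there alone. Zfp36l2, Zfp42, Zfp423 and Zfp521 had no peak in any list.

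The Zfp genes with a peak lay on 20 chromosomes, with 78 (26.5%) on chromosome 7, 35 on chromosome 17 and 33 on chromosome 13. A cluster was defined as at least 4 Zfp genes with a peak, with neighbours at most 500 kb apart. By this rule 135 of the 294 genes lay in 16 clusters and 159 lay outside. The largest cluster, on chromosome 13 from 67039612 to 67827002, held 21 genes with a peak, of 23 annotated Zfp genes in that span. A cluster on chromosome 7 from 29768552 to 30169727 held 15 of 15, and a cluster on chromosome 17 from 21009032 to 23559548 held 14 of 22. All positions are mm10. Clusters drawn over annotated genes, with a peak or not, numbered 22 and held 203 genes, of which 82.8% had a peak in some list under any symbol, beside 76.3% of the 194 annotated Zfp genes outside them.

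Cluster genes were called less evenly across the control libraries than the rest. In clusters, 88.1%, 65.9% and 40.0% of genes had a peak in the control libraries and 90.4%, 80.7% and 87.4% in the H/R libraries. Outside clusters the shares were 82.4%, 67.3% and 62.9% and then 87.4%, 79.9% and 90.6%. In all 6 lists were 37.0% of cluster genes and 55.3% of the others. Cluster genes had a median of 12 fingers and a last exon of 2920 bases, the others 9 fingers and 2765 bases. Peaks of cluster genes had median lengths of 2096, 2131 and 2015 bases in the control libraries and 1606, 1961 and 1129 in the H/R libraries.

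The number of genes called in control C was the lowest or tied for lowest of the 6 libraries in all 16 clusters. In the chromosome 13 cluster 18, 14 and 3 of the 21 genes had a peak in the control libraries and 15, 14 and 19 in the H/R libraries. In the chromosome 17 cluster of 14 genes the numbers were 14, 9 and 3 against 13, 13 and 12, and in the chromosome 7 cluster of 15 genes 13, 12 and 9 against 15, 13 and 14. Control C also had the shortest list of the 6. In the chromosome 13 cluster the gene with the most peaks was Zfp748, with 2, 1 and 0 against 2, 2 and 2, and those with the fewest were Zfp455, with 1 peak in control A, and Zfp456 and Zfp493, each with 1 peak in H/R C. In the chromosome 7 cluster they were Zfp74, with 1 peak in each control library and 3, 2 and 4 in the H/R libraries, and Zfp82, with 1 peak in H/R A and in H/R C, tied at a sum of 2 with Zfp940. In the chromosome 17 cluster they were Zfp51, with 1, 1 and 0 against 3, 1 and 3, and Zfp40, with 1 peak in control A, H/R A and H/R B, tied at a sum of 3 with Zfp758. Close pairs did not always share their calls. Zfp729a was called in 5 libraries and its neighbour Zfp729b in 3, and Zfp955a and Zfp955b were called in 5 and 3.

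**Figure D5:**
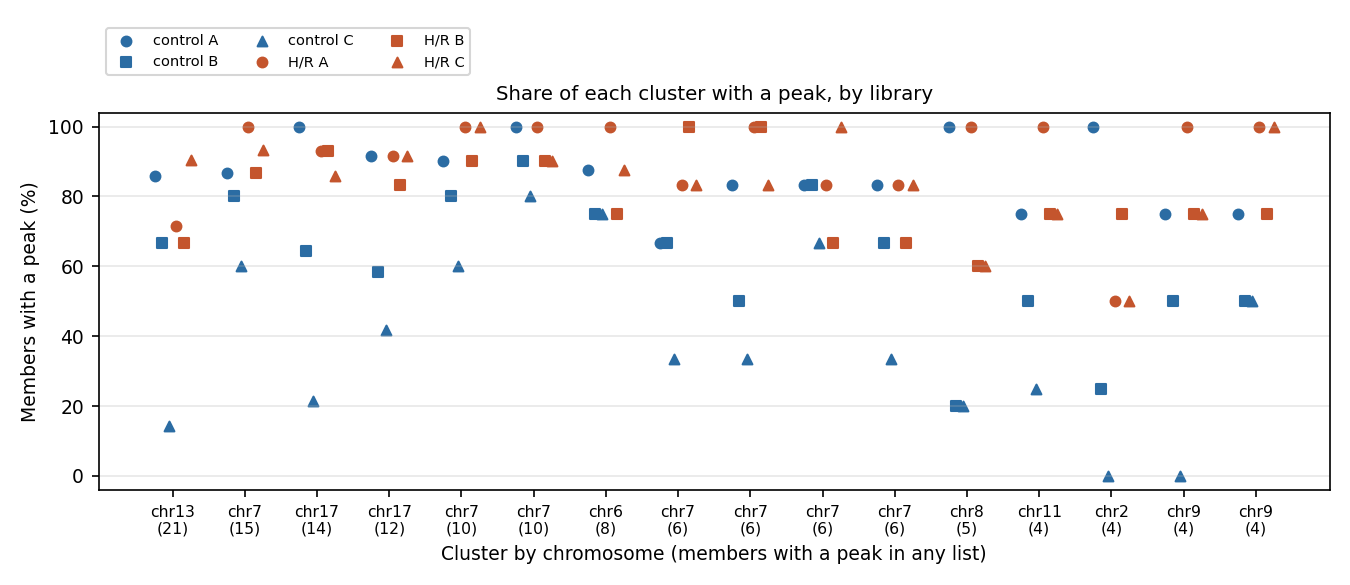
Percent of the members of each of the 16 Zfp clusters with a peak, by library (blue control, red H/R; symbols mark A, B and C). Clusters are ordered by size, with the number of members in brackets; in the largest, on chromosome 13, control C is the lowest with 3 of 21 genes.

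The proteins through which KRAB zinc finger proteins act were also looked up in the lists. Of 31 listed symbols of such partners, 24 had a peak and 17 had one in all 6 lists. More peaks in every H/R library were counted in 7 of the 24 (29.2%), beside 14.8% of all genes with a peak, and fewer in none. For the other 17 with a peak the groups overlapped. Daxx and Cbx1 had 1 peak in every library, Rbbp7 had 2, 2 and 1 against 2, 1 and 1, and Sumo2 had 1 in each control library against 0, 1 and 0. TRIM28's own gene, Trim28, had no peak in any list. Setdb1 had none in the control libraries and 2, 1 and 1 in the H/R libraries (exact permutation test, two-sided, p = 0.1), and Pphln1, of the HUSH silencing complex, none against 2, 1 and 3. Dnmt1, the maintenance DNA methyltransferase, had 8, 9 and 8 against 11, 11 and 12, and Dnmt3a, a de novo DNA methyltransferase, 2, 1 and 1 against 6, 5 and 6. Atf7ip, which stabilises SETDB1, had 9, 6 and 7 against 11, 11 and 12. On the lists as deposited the groups did not overlap for these 5 genes, nor for Chd3 and Fam208a. The partners were not recounted with lists of equal length, where 2.51% of all genes met the rule in place of 14.8%.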

How the data were processed

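m6A peaks of 6 immunoprecipitated libraries, each with an input, were analysed. Per the methods and labels, the authors trimmed reads with cutadapt (1.9.3), aligned them to mm10 with HISAT2 (2.0.4), removed reads with several positions and called peaks per library with MACS. The deposited columns used were the p score, the fold enrichment (a ratio) and the FDR in percent, which chose no peak here. Peak length was taken from the coordinates. No read counts were used, so the depth behind a peak is unknown here. Zfp genes and gene lists were chosen with earlier results of these data known.

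Transcripts were matched to RefSeq (GRCm38.p6) and GENCODE vM21 models, which gave exons for between 92.5% and 94.3% of Zfp peaks per library. Fingers were found by the C2H2 pattern in the translated coding sequence. Single genes were compared by the exact permutation test over libraries, and counts by whether groups overlapped. Library summaries over members carry no p-value. Counting code was tested on simulated lists. Named genes were those called in 1 group only, the 8 with most peaks, the 5 with the longest and the 5 with the strongest peaks, cluster extremes and a list of known roles and partners. Alternatives were equal list length, higher score and fold limits, leaving out a library, members without CCCH genes and other cluster gaps. Leaving out peaks listed under several symbols was a further alternative, but there were 0 such peaks. Python 3.11.15, pandas 2.3.3, numpy 2.4.6 and pysam 0.24.0 were used.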

Additional observations from a re-analysis of the deposited data

How the results depend on the processing

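Of 136 recomputed values, 113 moved by less than the replicate spread (counts by at most 1.5 times), and 23 by more or, for measures whose groups did not overlap, in sign. The setting without peaks listed under several symbols removed 0 peaks, so its values, all among the 113, could not move. With lists of equal length (7863 peaks) the difference in median Zfp peak length, H/R minus control, was 7 in place of -653.8 bases, and in peaks per gene -0.00917 in place of 0.604, both turned in sign. In the same setting the difference in share called was -4.08 in place of 18.0 points, also turned, the H/R-only count 0, the control-only count 5 (Zfp112, Zfp143, Zfp446, Zfp712 and Zfp784, all with a peak in every deposited H/R list; 2.12% beside 1.32% of all genes), the count with more peaks 0 and the longer-in-control count 5. A p score of at least 100 gave 5 longer-in-control genes. A fold of at least 10 gave differences of -10.9 in median fold, 0.177 in peaks per gene, -4.99 points in share called, again turned, and -3.81 points in last-exon bases, 0 H/R-only genes, 5 with more peaks and 4 longer in control. Peak centres gave -10.9 points in the last exon. The small difference in last-exon bases, -0.458 points, also turned in sign with a p score of at least 100 (1.48), without control A (0.860) and without H/R C (0.195), within replicate spread.

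Leaving out 1 library gave ranges of -17.2 to -12.4 (median fold), -871.8 to -466.6 bases (median length), 0.479 to 0.751 (peaks per gene), 10.2 to 26.5 points (share called), -2.19 to 0.860 points (last-exon bases), 6 to 24 H/R-only, 0 to 0 control-only, 22 to 60 with more peaks, 9 to 29 longer in control, 82 to 134 with higher fold in control and 129 to 135 genes in clusters. Members by current symbol, an alternative chosen after seeing the data, kept all counts within 1.5 times. No paired analysis was possible because the peak lists carry letters and not the replicate numbers of the labels.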

Other observations

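Zfp symbols also appeared in the lists of the other RNA classes. In the lncRNA lists, 14, 11 and 10 Zfp symbols had a peak in the control libraries (A, B, C), against 32, 20 and 30 in the H/R libraries, with no overlap, and 45 had one in any list. Their peaks were between 1.004% and 1.076% of the control lncRNA lists and between 1.26% and 1.47% of the longer H/R lists. None of these peaks overlapped an mRNA peak of the same library. The number of all lncRNA genes per library is not given here, and the lncRNA lists were not cut to equal length. In the circRNA lists, 19, 16 and 17 Zfp host symbols had a peak in the control libraries and 21, 20 and 23 in the H/R libraries. Their peaks were 3.16%, 2.72% and 2.98% of the control lists and 2.95%, 2.71% and 2.93% of the H/R lists, which overlapped. Of the 34, 22 and 21 circRNA peaks under these symbols in the control libraries, 26, 19 and 18 overlapped an mRNA peak of the same library, as did 36, 30 and 40 of 48, 36 and 57 in the H/R libraries.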
